A study of Mus musculus with 2 samples.

Results

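The interferon-response cells were the CD4 T cells of mouse visceral fat in which several genes of the interferon response were read at once. A cell was taken as a member if it carried at least 1 unique molecular identifier (UMI, a counted RNA molecule) for at least 3 of the 7 genes Ifit1, Ifit3, Isg15, Rsad2, Irf7, Oasl2 and Rtp4. The members were thus chosen by the UMI counts of these 7 genes in each cell, and values of these genes in them are no finding. Cells with Siglech, a marker of plasmacytoid dendritic cells, or with at least 5 UMIs summed over the MHC class II genes H2-Aa, H2-Ab1 and H2-Eb1 were left out. The rule gave 125 members among the 13291 barcodes of the series, 53 in the wild-type library (WT) and 72 in the library from CD27-deficient mice (CD27_KO).

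The study sorted cells with TCRb and CD4 on their surface from the stromal vascular fraction of fat around the abdominal organs (visceral adipose tissue, VAT). This fraction holds the fat's immune, stromal and vessel cells. WT or CD27-/- mice were pooled (10, per the labels' protocols, with nothing to say whether in each pool or in all) and each genotype gave 1 droplet 3′ library. The labels name GEX_WT and GEX_CD27_KO, give C57BL/6 as genotype for both and state no age or treatment. CD27 belongs to the TNF receptor family, costimulates T cells and is bound by CD70.

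Type I interferons bind the receptor pair IFNAR1 and IFNAR2, whose kinases JAK1 and TYK2 phosphorylate STAT proteins. With IRF9 these form the factor ISGF3, which binds interferon-stimulated response elements in front of genes for antiviral proteins, guanylate-binding GTPases and the brakes of the pathway. Interferon-gamma signals through its own receptor and shares many of these targets, among them the GTPases and the genes of MHC class I presentation.

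With 1 library of pooled mice per genotype, no spread between mice can be set against any difference, and no test was made. Intervals are exact, at 95%, and cover counting error only. The targeted gene followed the labels: Cd27 had 40 UMIs in 22 of the 53 WT members and 2037 UMIs in the other WT cells, against 0 in the 72 CD27_KO members and 15 in the other CD27_KO cells. A count of 0 in 72 cells allows a share of up to 4.17%, taken as 3 counts of the total. With a minimum of 500 genes and a maximum of 10% mitochondrial UMIs per cell, 6338 WT and 6853 CD27_KO cells were kept, and 6241 and 6798 of these passed the exclusions. The members held 248111 UMIs in WT and 281321 in CD27_KO, and 12 barcodes occurred in both libraries, 1 of them a CD27_KO member.

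Promoter windows of 4 of the rule genes are shown because they carry the letters of the response element. Each line gives the 250 bases before the gene's start in RefSeq (GRCm38.p6, the build of mm10), 5′ to 3′ on the gene's strand. Capitals mark matches to GAAANNGAAA or its reverse complement TTTCNNTTTC, and overlapping matches were merged. The windows are Ifit1 at chr19:34640639-34640888 (plus strand), Ifit3 at chr19:34583279-34583528 (plus), Isg15 at chr4:156200819-156201068 (minus) and Rsad2 at chr12:26456453-26456702 (minus).
Ifit1: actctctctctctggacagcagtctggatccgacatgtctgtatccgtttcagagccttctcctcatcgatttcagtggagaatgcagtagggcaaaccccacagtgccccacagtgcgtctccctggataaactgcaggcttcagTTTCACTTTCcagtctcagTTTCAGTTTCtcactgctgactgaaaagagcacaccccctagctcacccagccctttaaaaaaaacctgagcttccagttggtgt
Ifit3: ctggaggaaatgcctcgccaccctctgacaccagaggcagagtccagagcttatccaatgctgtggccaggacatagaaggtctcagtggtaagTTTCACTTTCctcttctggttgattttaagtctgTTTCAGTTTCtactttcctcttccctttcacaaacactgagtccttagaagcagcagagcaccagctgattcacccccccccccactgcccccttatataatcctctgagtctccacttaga
Isg15: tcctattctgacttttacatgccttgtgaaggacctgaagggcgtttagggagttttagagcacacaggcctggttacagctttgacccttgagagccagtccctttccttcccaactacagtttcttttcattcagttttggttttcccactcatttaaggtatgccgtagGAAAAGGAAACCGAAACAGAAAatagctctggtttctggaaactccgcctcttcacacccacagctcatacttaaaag
Rsad2: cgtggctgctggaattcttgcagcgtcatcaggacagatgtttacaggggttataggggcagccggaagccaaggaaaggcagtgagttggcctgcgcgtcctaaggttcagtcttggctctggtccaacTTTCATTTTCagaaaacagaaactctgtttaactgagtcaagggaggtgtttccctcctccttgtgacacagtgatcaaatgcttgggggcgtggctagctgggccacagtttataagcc

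The Ifit1 and Ifit3 windows each held 2 matches, the Isg15 window 3 that overlap and the Rsad2 window 1. The windows of Irf7 and Oasl2 held none of these letters. A match describes the sequence and was not tied here to binding of a factor.

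The same motif was looked for across the genome and among the genes that were higher in the members. It occurred in the window of 936 of 27025 genes with a RefSeq window (3.46%). Among genes with at least 50 UMIs in the members that lacked the stromal transcripts described below, 48 of 1087 with a window held it (4.42%). Of the 44 named genes that were at least 2-fold higher in those members than in the other cells of both libraries, 35 had a window and 18 of these held the motif (51.4%). They included Bst2 (tetherin, which holds budding virus at the cell surface) with 2 matches and Slfn5, Gbp2, Igtp and Cxcl10 with 1 each. Without the rule genes it was 14 of 30 (46.7%). In the list of interferon-gamma GTPases 9 of 10 windows held GAAANNGAAA or its reverse, and in that of other antiviral effectors 17 of 42. Other interferon lists held it less often. It was 0 of 6 for nucleic acid sensors, 0 of 4 for ISG15 conjugation and 1 of 11 for receptors and JAK-STAT. For regulatory factors it was 1 of 7, for negative feedback 1 of 5, for MHC class I presentation 3 of 15 and for interferon ligands 4 of 9.

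The members were a small share of the CD4 T cells in both genotypes. They made up 53 of 6241 eligible cells in WT, 0.849% (0.637 to 1.11), and 72 of 6798 in CD27_KO, 1.06% (0.830 to 1.33). The ratio of CD27_KO over WT was 1.25 (0.863 to 1.81), an interval that holds 1, so no difference in share was detectable at this count. The direction depended on how depth was treated. Thinning to 1300 UMIs left out 547 WT and 55 CD27_KO cells with fewer UMIs. After it 16 WT cells (0.280%) and 38 CD27_KO cells (0.562%) met the rule, a ratio of 2.01 (1.09 to 3.86). In 10 further draws the ratio ran from 1.47 to 2.15. At 2000 UMIs it was 1.63 (0.840 to 3.31), and at 1300 with Isg15 not counted 1.69 (0.722 to 4.28), intervals that hold 1. Among cells with at least 1000 genes the order turned, with 1.75% in WT and 1.17% in CD27_KO and a ratio of 0.668 (0.415 to 1.08).

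The members of the libraries differed in depth. WT members had a median of 3718 UMIs and CD27_KO members 2399, against 1926 and 2199.5 in the other cells of each library. Of the 53 WT members, 23 lay at or above the 90th percentile of the other cells' UMIs, and of the 72 CD27_KO members 13 did. At the 99th percentile it was 3 and 5. No doublet caller was used here, and whether cells captured together contributed to these deep members was not tested.

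**Figure D1:**
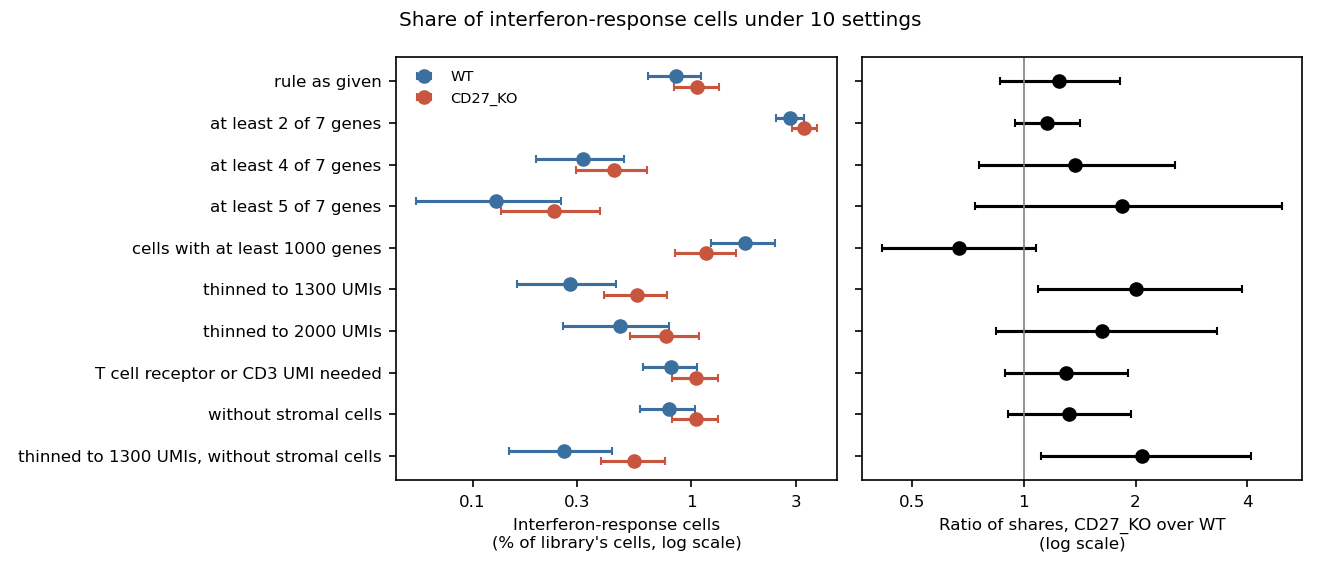
Share of interferon-response cells in each library (left, % of eligible cells, log scale) and ratio of the shares, CD27_KO over WT (right, log scale), under 10 settings. Points are values and bars are exact 95% intervals for counting error. The ratio was 1.25 by the rule as given, 2.01 after thinning to 1300 UMIs, 1.63 after thinning to 2000 UMIs and 0.668 among cells with at least 1000 genes.

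The number of rule genes in a cell formed a falling range with no gap at the threshold. In WT 124 cells carried 2 of the 7 genes and lay just outside, 33 carried 3, 12 carried 4, 6 carried 5, 2 carried 6 and 0 carried all 7. In CD27_KO 151 cells carried 2 genes, 42 carried 3, 14 carried 4, 7 carried 5, 6 carried 6 and 3 carried all 7. The largest group of members in each library was thus at the lowest number that the rule admits, and the members are the upper end of a range.

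A list of 51 other antiviral effectors was used as a readout that the rule did not name. Its summed level in UMIs per 1000000 UMIs (CPM) was higher at each step up to 3 rule genes. In WT it was 4465 in cells with none of the 7 genes, 5319 with 1, 6961 with 2 and 9414 (8931 to 9915) with 3. In CD27_KO it was 5146, 5776, 7152 and 12516 (11949 to 13104). Cells with at least 5 rule genes reached 22042 in WT and 19183 in CD27_KO. The same cells supplied both readouts, so this order is a description and not a check of the threshold.

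**Figure D2:**
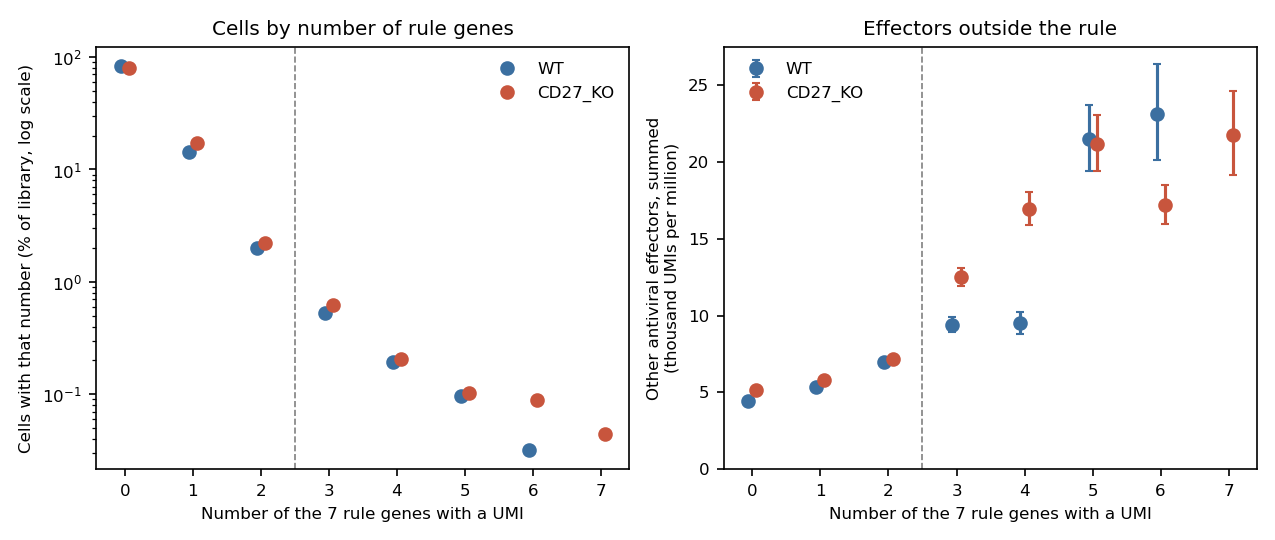
Cells by number of the 7 rule genes with a UMI, as % of eligible cells (left, log scale), and summed level of the other antiviral effectors in CPM, shown in units of 1000 (right) with exact 95% Poisson bars. The dashed line is the threshold of at least 3 genes. Effector levels ran from 4465 CPM in WT cells without a rule gene to 22042 CPM in WT cells with at least 5.

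The label was checked against T cell genes and against markers of other cells. At least 1 UMI of Cd3d, Cd3e, Cd3g, Trac, Trbc1 or Trbc2 was found in 50 of 53 WT and 71 of 72 CD27_KO members. A few members did not look like T cells. In 4 WT members and 1 CD27_KO member, 8 stromal, mesothelial and fat-cell genes (Col1a1, Col3a1, Dcn, Pdgfra, Adipoq, Fabp4, Msln and Upk3b) together had between 49 and 266 UMIs, while no other member had more than 1. These cells had 1 T cell receptor or CD3 UMI between them. One of the WT cells held 261 UMIs of Fabp4, the fatty acid carrier of fat and vessel cells, and another held 354 of Slpi, 166 of Dcn and 30 of the mesothelial gene Upk3b.

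The WT stromal cells held 10.4% of the WT members' UMIs and the CD27_KO one 0.508% of its library's. Without them 49 WT and 71 CD27_KO members remained, all with a T cell receptor or CD3 UMI, and the ratio of shares was 1.33 (0.909 to 1.95). Values below are over all 125 members, and those without the 5 cells stand beside them where the count, direction or size depends on it. The cells were set apart after their values were seen.

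Many markers of other immune cells were at or near 0. Of 10 macrophage and monocyte genes, 9 had no UMI in the T cell members of each library, and the list summed to 1 UMI in each. All 7 neutrophil and mast cell genes were at 0. Of 10 dendritic cell genes 8 had no UMI in them, among these Xcr1, Clec9a, Cd209a, Flt3 and Itgax. The rest of the 8 were H2-Aa, H2-Ab1 and H2-Eb1, which the rule kept low, so they do not check the label. The list summed to 32 UMIs in WT and 28 in CD27_KO, all from Cst3 and Cd74. Of 7 B cell genes 5 had none, among these Ms4a1, and the list summed to 25 and 15 UMIs. The sum of 7 plasmacytoid dendritic cell genes stood at 476 CPM in WT and 576 in CD27_KO members against 160 and 168 CPM in the other cells. Bst2, an interferon target that the list shares with the effectors, was the only one of the 7 with at least 20 UMIs. Siglech, also on the list, was at 0 by the rule. The 6 NK and CD8 genes summed to 7 UMIs in WT and 12 in CD27_KO members. That was 28.2 and 42.7 CPM against 22.7 and 18.6 outside, log2 ratios of 0.31 (-1.01 to 1.37) and 1.19 (0.23 to 2.02). The 7 type 2 innate genes summed to 713 and 821 CPM in members against 664 and 955 CPM outside, so they were not near 0 in either.

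Among the rule genes, Isg15 was the most often read and Oasl2 the least. Isg15, a ubiquitin-like protein that is attached to other proteins, was present in 43 of 53 WT and 61 of 72 CD27_KO members, with 419 and 739 CPM. In the other cells it stood at 35.3 and 45.8 CPM and occurred in 7.01% and 9.99% of cells. It was thus the rule gene with the highest level outside the members as well. Ifit1, which binds foreign RNA ends, occurred in 31 WT and 53 CD27_KO members, with 250 and 608 CPM, against 5.47 and 5.68 CPM in the other cells. Its partner Ifit3 stood at 121 and 231 CPM against 1.66 and 1.69.

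Rsad2 (viperin) showed the widest gap between the libraries. It had 19 UMIs in 12 WT members and 80 in 29 CD27_KO members, or 76.6 and 284 CPM, with 2.04 and 1.54 CPM outside. Irf7, the factor that amplifies type I interferon production, stood at 230 CPM in WT and 220 in CD27_KO members. Rtp4 stood at 165 and 203 CPM, and Oasl2, of the oligoadenylate synthetase family, at 68.5 and 46.2. The members, with 1.55% of the eligible UMIs in WT and 1.42% in CD27_KO, held 41.9% and 60.6% of all Ifit1 UMIs of eligible cells and 37.3% and 72.7% of those of Rsad2, but 15.8% and 18.9% of those of Isg15. All of these levels are descriptions.

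**Figure D3:**
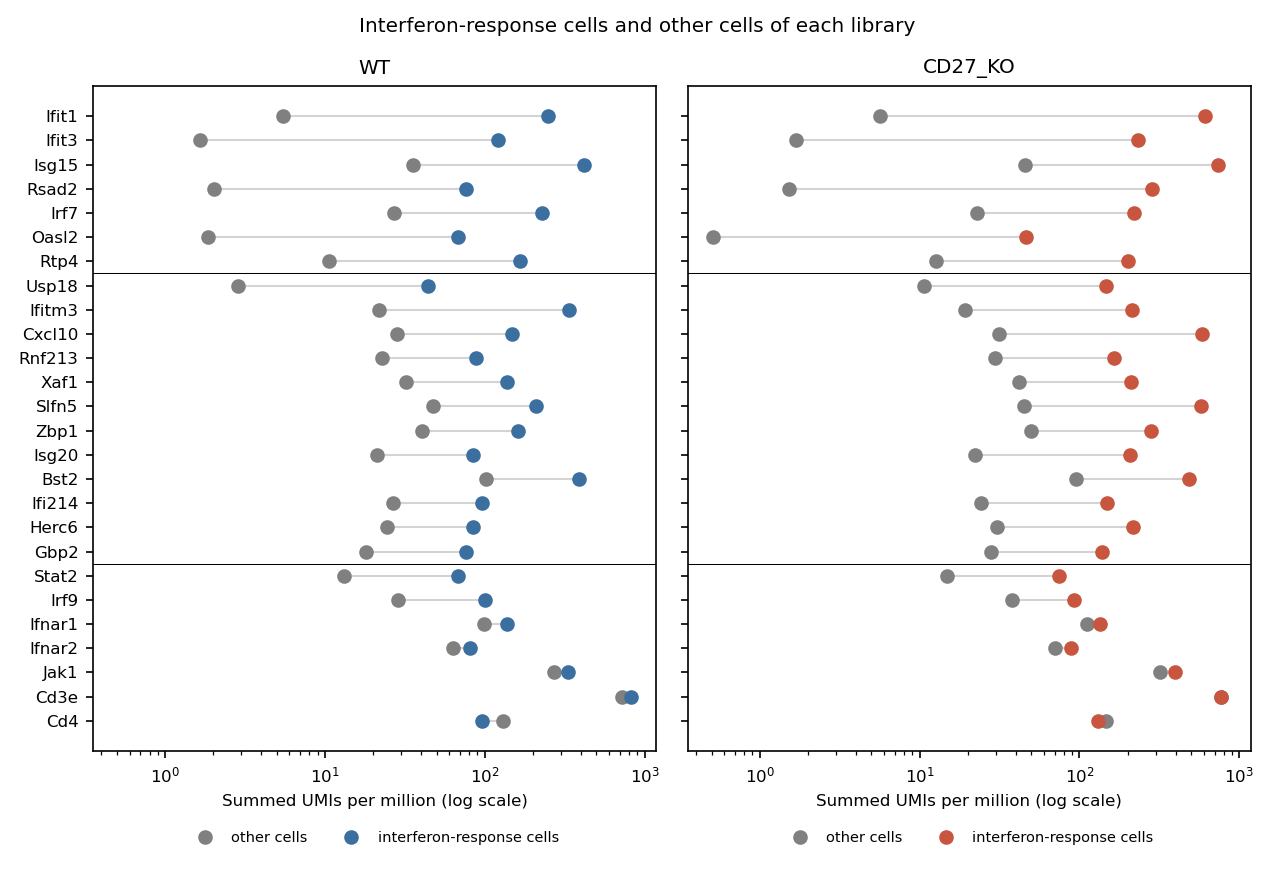
Summed CPM (log scale) of 26 genes in interferon-response cells (coloured) and in the other cells (grey) of each library. The top block holds the 7 rule genes, the middle block the 12 other genes with the highest ratio once stromal cells were left out, and the bottom block pathway and T cell genes. Ifit1 stood at 250 CPM in WT members and 5.47 outside, while Ifnar1, Ifnar2, Jak1, Cd3e and Cd4 lay close to the other cells.

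Over all genes, the rule genes included, members were compared with the other cells of their library. Of 1582 genes with at least 50 UMIs in members, 59 were at least 2-fold higher in both libraries (3.73%) and 0 were at least 2-fold lower in both (0%). Without stromal cells it was 46 of 1465 (3.14%). These counts hold rule genes, which passed because the rule chose the cells by them. The minimum of 50 UMIs was counted in the members, so genes low in them tended to be left out. The 0 lower is therefore no finding. Among named genes without stromal cells 44 passed, or 38 with the rule genes left out. The 12 genes outside the rule with the highest ratios fell into 2 kinds. Efemp1, Col3a1, Upk3b, Gas1, C3, Aebp1, Igfbp6 and Timp2, genes of connective tissue, mesothelium and complement, took 8 of the 12 places. For all of them but Timp2 the UMIs of CD27_KO members came from 1 cell, and those of WT members from 3 or 4. Usp18, Ifitm3, Cxcl10 and Slfn5 took the other places.

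Without stromal cells the 12 highest outside the rule were Usp18, Ifitm3, Cxcl10, Rnf213, Xaf1, Slfn5, Zbp1, Isg20, Bst2, Ifi214, Herc6 and Gbp2. Usp18, the protease that removes ISG15 and blocks IFNAR2, led with log2 ratios of 4.14 in WT and 3.77 in CD27_KO. Ifitm3, which hinders virus entry, followed with 2.74 and 3.58. With stromal cells counted, its UMIs came from 9 WT and 12 CD27_KO members. Cxcl10, the ligand of CXCR3, stood at 2.56 and 4.23. Zbp1, a sensor of Z-form nucleic acid, stood at 2.10 and 2.51, and Herc6, the ligase that attaches ISG15 in mice, at 1.96 and 2.83.

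The lowest ratios were small. The gene nearest to a shared decrease was Ndufa6, a subunit of mitochondrial complex I, with log2 ratios of -0.48 in WT and -0.45 in CD27_KO. Cxcr6, a chemokine receptor of tissue T cells, had -0.59 and -0.40, and Ctla2a -0.35 and -0.84.

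The antiviral effectors were higher as a group. Of 43 effectors with at least 20 UMIs in members, 30 were at least 2-fold higher in both libraries and 0 lower. Of all genes with this many UMIs 3.19% were higher. Effectors low in members could fall below this minimum, so the 0 lower is no finding. The median log2 ratio was 1.48 in WT and 2.19 in CD27_KO, against 0.16 and 0.02 over all such genes. Without stromal cells 32 of 43 were higher, where 2.33% of all genes were. Ifit3b, a close copy of Ifit3, stood at 64.5 and 85.3 CPM against 0.573 and 0.358 in the other cells, log2 ratios of 6.81 and 7.90. Cmpk2, which lies beside Rsad2, stood at 2.92 and 4.20, and Ifit1bl1 at 3.51 and 3.24. Reads of the Ifit, Ifi200, Slfn and Gbp families can be split between near-identical copies, so values of single members of these families are uncertain.

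Some effectors were already high in the other cells. Ifi27l2a, an interferon target, stood at 946 CPM in the other WT cells and 759 in the other CD27_KO cells, and at 2801 and 2079 CPM in the members. Ly6e had 661 and 794 CPM outside and 1020 and 917 inside. Ly6a, the surface protein Sca-1, had 365 and 626 CPM outside and 689 and 1290 inside.

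The receptors differed less than the factors below them. Ifnar1 had log2 ratios of 0.46 in WT and 0.27 in CD27_KO, Ifnar2 0.34 and 0.34, and Jak1 0.29 and 0.30. Ifngr1, a chain of the interferon-gamma receptor, had 0.07 and -0.45. Stat2 and Irf9, parts of ISGF3, stood apart from these. Stat2 was at 68.5 CPM in WT and 74.6 in CD27_KO members against 13.2 and 14.9 CPM outside, log2 ratios of 2.37 and 2.32. Irf9 had 1.81 and 1.29. Of 9 measured receptor and JAK-STAT genes 3 were at least 2-fold higher in both libraries, these among them. Of all genes with at least 20 UMIs in members 3.19% were.

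Of 4 measured regulatory factors outside the rule, Irf9 alone passed 2-fold in both, where 3.19% of all genes with at least 20 UMIs did. Irf1 had 1.02 and 0.44, Irf2 0.17 and 0.61 and Irf3 0.38 and 0.68. Among 6 measured brakes of the pathway, Usp18 passed 2-fold. Socs1, which blocks JAK kinases, had 0.16 in WT and 0.59 in CD27_KO, Cish 0.73 and -0.26, and Ptpn2 0.23 and -0.03. Of 4 measured sensors, Ifih1 (MDA5) had 2.71 and 3.10 and Ddx58 (RIG-I) 1.72 and 2.27, while Tmem173 (STING) had 0.25 and 0.31.

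The GTPases were higher, and MHC class I genes lay closer to the other cells. Of 12 measured GTPases 9 were at least 2-fold higher in both libraries, where 3.19% of all genes with at least 20 UMIs were. The GTPases' median log2 ratios were 1.62 and 1.65. Gbp3 had log2 ratios of 2.20 and 2.45 and Igtp 1.55 and 2.05. Of 17 MHC class I presentation genes 0 passed 2-fold in both, with medians of 0.33 and 0.78. H2-K1 had 0.26 and 0.22, B2m 0.14 and 0.25, and the highest of the group, Tapbp, 0.99 and 1.05. Cd274, the gene of PD-L1, had 1.81 in WT and 2.14 in CD27_KO, and stood at 137 and 146 CPM in members against 39.1 and 33.1 outside.

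No transcripts were read of the type I and III interferon genes that were looked at, and other genes of these families were not. Ifnb1, Ifna1, Ifna2, Ifna4, Ifna5, Ifnk, Ifnl2 and Ifnl3 had 0 UMIs in the members and in the other cells, and a limit of 3 counts per group is 12.1 CPM in WT and 10.7 CPM in CD27_KO members. Ifng had 27 UMIs in 14 WT members and 60 UMIs in 21 CD27_KO members, or 109 and 213 CPM, against 71.0 and 119 CPM outside.

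The members were not of a single T cell state. At an equal depth of 1300 UMIs per cell, Gata3, the Th2 factor, was read in 17.3% (8.23 to 30.3) of 52 WT members and 26.4% (16.7 to 38.1) of 72 CD27_KO members, against 20.1% and 29.5% of the other cells. Il1rl1, the IL-33 receptor, was read in 17.3% and 12.5% of members against 15.1% of the other WT cells and 1333 of 6671 other CD27_KO cells. Foxp3, the Treg factor, was read in 3 of 52 WT members and 1 of 72 CD27_KO members, against 5.07% and 2.28%. Lef1, of naive and central memory cells, was read in 19.2% and 13.9% against 21.2% and 15.2%. For each of these genes the other cells' share lay within the members' interval.

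Ly6c2 and Ly6a were read more often in members of both libraries. Ly6c2, a surface protein of effector and memory T cells, occurred in 32.7% (20.3 to 47.1) of WT and 26.4% (16.7 to 38.1) of CD27_KO members against 15.6% and 11.7% of the other cells. Ly6a, which is also one of the effectors above, occurred in 55.8% (41.3 to 69.5) and 77.8% (66.4 to 86.7) against 31.9% and 51.2%. Ccl5 occurred in 53.8% (39.5 to 67.8) and 55.6% (43.4 to 67.3) against 37.8% and 45.1%, and the CD27_KO interval holds the other cells' share. In the other cells that carried both Ccr7 and Lef1 UMIs, which are of naive type, Ly6c2 occurred in 2.56% and 2.67% and Ccl5 in 13.2% and 12.3%. Without thinning, Ly6c2 was read in 49.1% and 41.7% of members and in 21.2% and 17.7% of the other cells.

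Ccr7, a homing receptor for lymph nodes, was rare. It was read in 3 of 52 WT members (5.77%) and 0 of 72 CD27_KO members against 9.14% and 2.82% of the other cells. Nkg7, of cytotoxic and Th1 cells, was read in 40.4% (27.0 to 54.9) of WT and 18.1% (9.98 to 28.9) of CD27_KO members against 27.3% and 24.0%. Both intervals hold the other cells' share, in WT only just. Without stromal cells Nkg7 was read in 21 of 48 WT members, 43.8% (29.5 to 58.8), an interval above the other WT cells' share. In CD27_KO it was then 18.3% (10.1 to 29.3), which still holds the other cells' share.

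**Figure D4:**
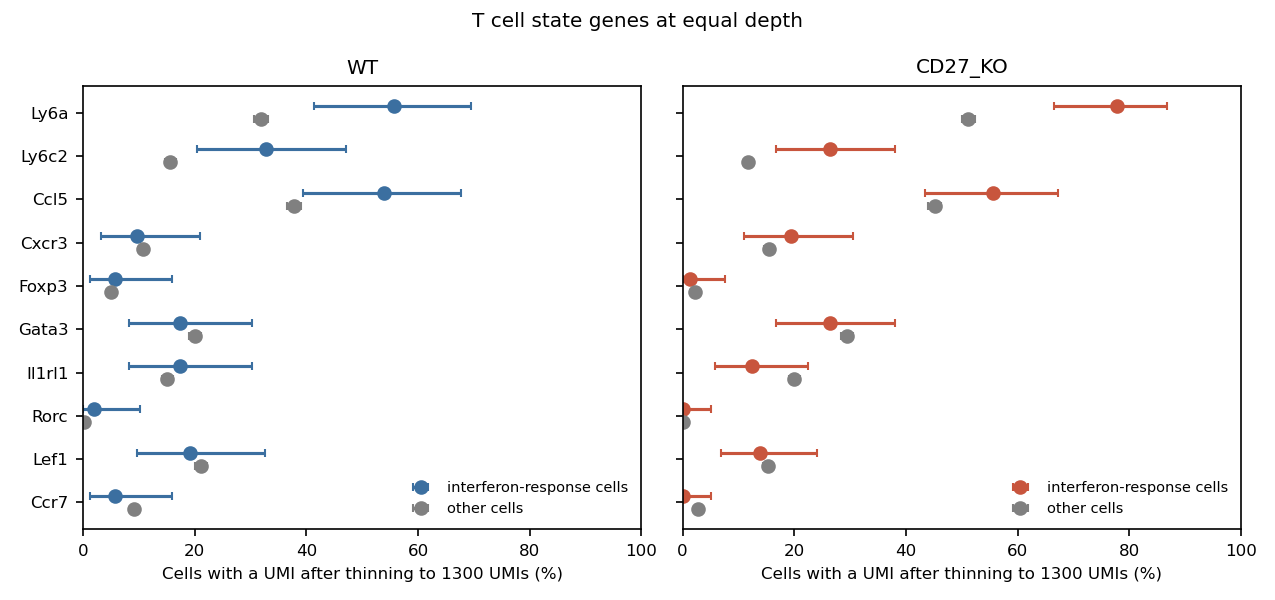
Share of cells (%) with at least 1 UMI of 10 T cell state genes, in interferon-response cells (coloured) and other cells (grey) of WT (left) and CD27_KO (right), with exact 95% intervals. Cells were thinned to 1300 UMIs, and those with fewer were left out. Ly6a, also an effector, and Ly6c2 lay above the other cells in both libraries (Ly6c2 32.7% and 26.4% against 15.6% and 11.7%), while Gata3, Foxp3 and Lef1 overlapped with them.

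T cell identity genes lay close to the other cells. None of the 10 was at least 2-fold apart, and the median log2 ratio was -0.00 in WT and -0.10 in CD27_KO. Cd3e had 0.17 and 0.00, Trac 0.18 and -0.07, and Cd4 -0.44 and -0.15 with 24 and 37 UMIs. The 8 Treg genes had medians of 0.10 and 0.13 and 0 of them were 2-fold higher in both libraries, where 3.19% of all genes were. Areg, the growth factor amphiregulin, had 0.10 and 0.76, and Ctla4 0.10 and 0.31.

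One WT member carried most of the type 2 cytokine transcripts of its group. It was the deepest WT member, with 24737 UMIs, 128 of them from T cell receptor and CD3 genes, and 3 rule genes. It held 162 of the 165 Csf2 UMIs of WT members, all 48 of Il13, 18 of 20 of Il5, all 128 of Ccl1, and 10 of Gata3 and 19 of Il1rl1. In the 72 CD27_KO members Csf2 had 3 UMIs and Il13, Il5 and Ccl1 had 0. Levels of Csf2, Il13, Il5 and Ccl1 in WT members are therefore mainly those of 1 cell, while Gata3 and Il1rl1 were read in 19 and 17 of the 53.

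The libraries were then compared within the members, which asks whether interferon-response cells of CD27-deficient mice carried other transcript levels. Of 749 genes with at least 100 UMIs over both groups of members, 71 passed 1.5-fold towards CD27_KO (9.48%) and 43 passed it towards WT (5.74%). Without stromal cells these were 54 of 696 (7.76%) and 32 (4.6%). The 71 include the rule genes Ifit1 and Isg15, whose part in the count is a description. In the other cells, 676 of 9787 genes were higher (6.91%) and 322 lower (3.29%). The median gene outside the members was shifted by 0.17 on the log2 scale, and with values centred on it the split was 320 higher and 456 lower.

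The 10 genes furthest on the higher side included the rule gene Ifit1. They were Iigp1, Cxcl10, Parp14, Slfn5, Gbp4, Usp25, Ifit1, Ifi213, Slfn1 and Ikzf1. Iigp1, a GTPase that acts on vacuoles of intracellular parasites, had 16 UMIs in 11 WT members and 85 in 32 CD27_KO members, 64.5 and 302 CPM, a log2 ratio of 2.23 (1.45 to 3.10). Outside the members it was 15.5 and 35.0 CPM, a log2 ratio of 1.18. Ifit1 had a log2 ratio of 1.28 (0.86 to 1.73) inside and 0.05 outside, a description only, since the rule sorted the cells by it.

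Cxcl10 was read in 7 of 53 WT and 22 of 72 CD27_KO members, with 149 and 587 CPM and a log2 ratio of 1.98 (1.45 to 2.53). Single cells held much of it, 22 of 37 UMIs in WT and 42 of 165 in CD27_KO. Without the highest cell of each library 15 and 123 UMIs were left and the log2 ratio was 2.87 (2.09 to 3.75). In the other cells Cxcl10 was at 28.2 and 31.4 CPM, a log2 ratio of 0.15.

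Slfn5, of the Schlafen family, had 52 UMIs in 23 WT members and 161 in 39 CD27_KO members, a log2 ratio of 1.45 (0.99 to 1.93), and -0.07 outside. Rsad2, below the count for the list of 10, had a log2 ratio of 1.89 (1.16 to 2.70) inside and -0.41 outside. Parp14, an ADP-ribosyltransferase, had 117 and 331 CPM inside and a log2 ratio of 0.29 outside, and Ifi213, of the Ifi200 family, had 1.26 inside and -0.11 outside. Slfn5, Parp14 and Ifi213 thus had larger ratios within the members than outside them, a difference that was not tested, and Rsad2 as a rule gene is a description. Ikzf1, a lymphocyte transcription factor that is no interferon effector, had 1.09 inside and 0.59 outside.

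On the lower side the 10 furthest were Cxcl2, Fabp4, Slpi, Csf2, Ccl1, Igfbp6, Aebp1, Dcn, C3 and Col3a1. Of these, Fabp4, Slpi, Igfbp6, Aebp1, Dcn, C3 and Col3a1 followed the stromal cells, and Csf2 and Ccl1 the single deep cell. Cxcl2, a neutrophil chemokine, had 282 UMIs in 9 WT members, 135 of them in the cell with Csf2, and 2 UMIs in 1 CD27_KO member. In the other cells it was at 861 and 153 CPM, a log2 ratio of -2.49. Without stromal cells the 10 lowest still held Cxcl2, Csf2 and Ccl1, and among the others were Ikzf2 (Helios, -1.55), Nr4a1 (-1.46), Dusp1 (-0.99), Psenen (-0.98), Traf1 (-0.91) and Nkg7 (-0.89).

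As a list, the other antiviral effectors were higher in CD27_KO members. Of 43 measured, 29 were at least 1.5-fold higher and 1, Ifitm3, was lower, where 15.2% of all genes with at least 20 UMIs in the members were higher and 13.5% lower. The median log2 ratio was 0.88 against 0.04 over all such genes. Ifitm3 was lower through the stromal cells: with them it stood at -0.65, and without them at 0.98. Without stromal cells 28 of 43 effectors were higher and 0 lower (15.7% and 11.3% of all such genes), with a median of 0.76.

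The effectors' sum differed less than their median. It stood at 10842 CPM (10436 to 11260) in WT and 15260 CPM (14807 to 15724) in CD27_KO members, a log2 ratio of 0.49 (0.42 to 0.56), or 0.44 (0.37 to 0.52) without stromal cells. Ifi27l2a, the most abundant effector, went the other way with -0.43 (-0.59 to -0.27). Outside the members the sum was at 4710 and 5348 CPM, a log2 ratio of 0.18, and 6 of 45 effectors were at least 1.5-fold higher and 2 lower, where 10.2% of all genes with at least 20 UMIs were higher and 7.65% lower.

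The difference was smaller among members chosen at equal depth. Where the cells were thinned to 1300 UMIs before the rule was applied, so that cells of both libraries met it at 1 depth, the effectors stood at 20914 CPM (18994 to 22974) in 16 WT members and 22247 CPM (20951 to 23602) in 38 CD27_KO members. These were fewer cells with higher effector levels than the members by the rule as given, and depth and the change of members cannot be told apart here. The log2 ratio was then 0.09 (-0.07 to 0.25), and 0.04 (-0.12 to 0.21) without stromal cells. In 10 further draws it ran from 0.17 to 0.35. By number of rule genes without thinning, the effectors stood at 9414 and 12516 CPM in cells with 3 genes, at 9484 and 16933 with 4, at 21503 and 21177 with 5, and at 23097 and 17193 with 6. The gap between the libraries thus lay in cells with 3 or 4 rule genes, where WT members had medians of 3874 and 5211 UMIs and CD27_KO members 2162 and 2531.5.

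**Figure D5:**
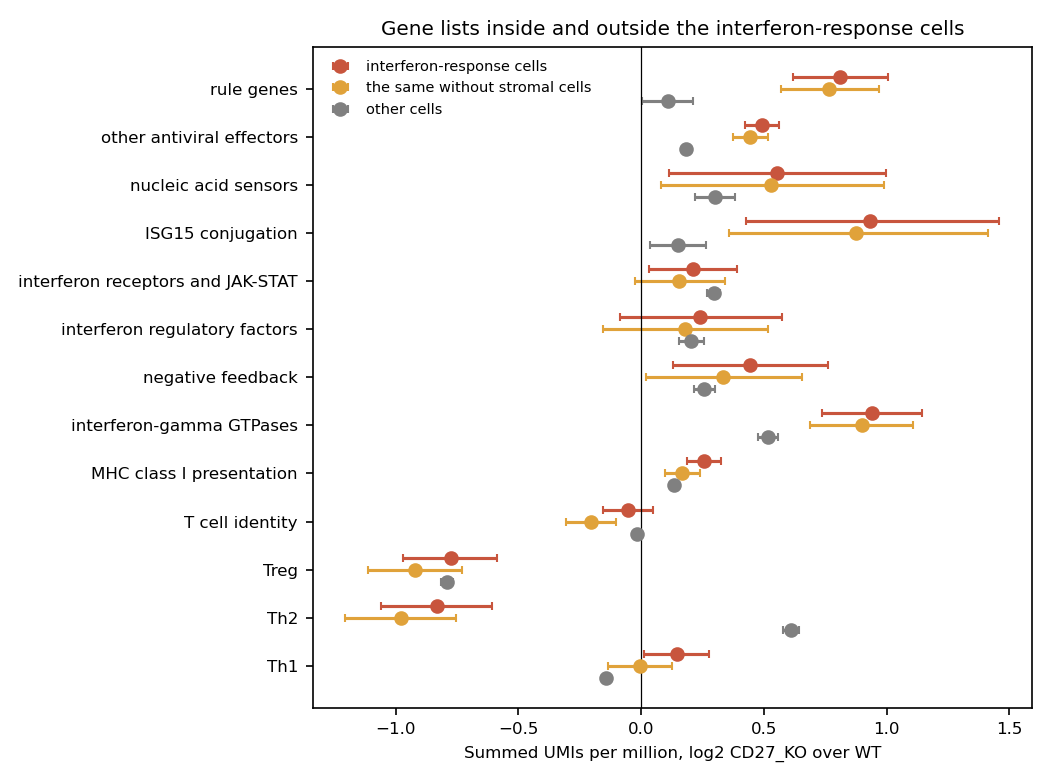
Log2 ratio of summed CPM, CD27_KO over WT, for 13 gene lists in interferon-response cells (red), in the same cells without stromal cells (amber) and in the other cells (grey), with exact 95% intervals for counting error. The effectors were at 0.49 inside and 0.18 outside, the GTPases at 0.94 and 0.52, and the Th2 list at -0.83 inside, where 1 WT cell held most of its cytokine UMIs, and 0.61 outside.

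Within the members the GTPases followed the effectors, though they also differed outside. Their sum was at 1169 CPM in WT and 2243 in CD27_KO members, a log2 ratio of 0.94 (0.74 to 1.15), and at 444 and 636 CPM in the other cells, 0.52 (0.47 to 0.56). Of 12 measured, 8 were at least 1.5-fold higher within the members, and 9 of 16 outside, where 15.2% and 10.2% of all genes were. Gbp6 had 1.48 inside and 0.40 outside, and Gbp7 0.05 and 0.37. MHC class I genes stood closer together, with 4 of 17 higher and 1 lower, near the 15.2% and 13.5% of all genes, and a sum of 0.26 (0.19 to 0.33), or 0.17 (0.10 to 0.24) without stromal cells. Tap1, the peptide transporter, had 1.08 and Nlrc5, the transactivator of the class I genes, 1.22, with 14 and 37 UMIs.

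Within the members the signalling genes had a smaller summed ratio than the effectors, and outside them a larger one. The receptor and JAK-STAT list had a summed log2 ratio of 0.21 (0.03 to 0.39) inside and 0.30 outside, where the effectors had 0.49 and 0.18. Without stromal cells the list had 0.16 (-0.03 to 0.34) inside, an interval that holds 0. Of its 9 measured genes 1 was at least 1.5-fold higher inside and 0 lower, where 15.2% and 13.5% of all genes were. Ifnar1 had -0.02 (-0.73 to 0.69), Ifnar2 0.14 (-0.77 to 1.07), Stat2 0.12 (-0.87 to 1.14) and Irf9 -0.12 (-0.97 to 0.73). Their intervals leave room for differences of 1.5-fold either way. Socs1 had 0.69 (0.13 to 1.27) and Irf2 0.71 (0.14 to 1.29), with 0.26 and 0.28 outside. Usp18 had 11 UMIs in 9 WT members and 41 in 25 CD27_KO members, a log2 ratio of 1.72 (0.73 to 2.83), and 1.90 outside, so the gap was there in both. The gene lies on chromosome 6, 3.96 Mb from Cd27 (GENCODE vM21, mm10), and whether its level moves with the targeted locus was not tested.

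The rule genes themselves were not of 1 pattern. Rsad2, Ifit1, Ifit3 (0.93, 0.29 to 1.61) and Isg15 (0.82, 0.47 to 1.17) passed 1.5-fold towards CD27_KO members, while Rtp4 (0.29, -0.31 to 0.91), Irf7 (-0.06, -0.60 to 0.48) and Oasl2 (-0.57, -1.73 to 0.56) had intervals that hold 0. Outside the members Isg15 had 0.37, Irf7 -0.26 and Rtp4 0.27. Since the rule needs UMIs of these genes, their levels inside depend on how many UMIs a cell had.

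Immediate early genes, which also respond to tissue dissociation, went the other way from the effectors. Of 11 measured, 6 were lower by 1.5-fold or more in CD27_KO members and 1 higher, with a median of -0.77, and 4 lower and 1 higher without stromal cells (median -0.36). Of all genes with this many UMIs, 13.5% were lower and 15.2% higher, and 11.3% and 15.7% without stromal cells. Jun had -2.35 (-3.39 to -1.43), with 54 and 12 UMIs, and Cd69, an activation marker that keeps T cells in tissue, 0.95 (0.49 to 1.41). Outside the members 0 of 13 were higher and 1 lower, where 10.2% and 7.65% of all genes were. Of 8 Treg genes 6 were lower inside, or 8 without stromal cells, and 5 outside, with summed log2 ratios of -0.78 and -0.79. The share of all genes that were lower was 13.5% inside, 11.3% without stromal cells and 7.65% outside.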

How the data were processed

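Droplet 3′ single-cell RNA libraries of sorted VAT CD4 T cells, 1 per genotype, were used. Per the file headers, the authors made the deposited matrices with Cell Ranger 6.1.1, and the submitters' processing notes name mm10 as the build. The deposited values are UMI counts per gene and called cell for 32285 genes. A single antibody feature with 0 UMIs was not used. The labels differ on the kit version, and for aligner settings no source used here gives any. Libraries held 16628623 (WT) and 20191704 (CD27_KO) UMIs.

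Everything further was computed here with Python 3.11.15, numpy 2.4.6, pandas 2.3.3, scipy 1.17.1 and matplotlib 3.10.9. UMIs were summed over cells and scaled to 1000000 UMIs (CPM). Shares carry Clopper-Pearson intervals, sums Poisson intervals and ratios conditional binomial ones, each at 95%. UMIs of 1 cell are not independent, so these intervals are too narrow for a spread between cells or mice. A side with 0 counts was set at 3 counts per group, and ratios so made are bounds. Genes needed at least 50 UMIs in members against other cells and at least 100 between libraries, and list members at least 20. Thinning drew 1300 or 2000 UMIs per cell without replacement and left out cells with fewer. At 1300 it left out 547 WT and 55 CD27_KO cells, among them 1 WT member and 0 CD27_KO members. Motifs were searched on both strands of RefSeq windows. The steps were tested on simulated data.

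The members and the 30 gene lists were chosen with earlier results of these data known. Named were the 7 rule genes, the 12 highest and 6 lowest against other cells, the 10 furthest each way between libraries, up to 4 per list and the listed signalling genes. Receptor segments and ribosomal, mitochondrial, sex-linked and unnamed genes were not named, and a few others are not reported here. The set without stromal cells, and its leading genes, were added after values were seen. No barcode was dropped for occurring in both libraries.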

Additional observations from a re-analysis of the deposited data

How the results depend on the processing

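The libraries hold too few members to fix the small differences: with 53 and 72 cells the ratio of shares could lie between 0.863 and 1.81 by counting error alone, and spread between mice is unknown. No paired analysis was possible because each genotype has 1 library and the replicate numbers only name it. The log2 ratio of shares was 0.32 as reported, 0.88 with at least 5 of 7 genes and -0.58 with at least 1000 genes per cell. It was 1.01 after thinning to 1300 UMIs, 1.06 after that without stromal cells and 0.70 after thinning to 2000 UMIs. The cause of these shifts was not tested. It stayed between 0.27 and 0.62 when each rule gene in turn was not counted.

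Within members, 71 genes were higher and 43 lower in CD27_KO as reported. The pair was 20 and 9 with at least 4 of 7 genes, 173 and 129 at 50 UMIs, 19 and 18 at 200 UMIs, 15 and 18 at 2-fold, 32 and 24 with Isg15 not counted in the rule, 8 and 5 with members from thinned cells and 6 and 4 with these without stromal cells. Most of these settings test fewer or more genes or cells by construction. Without each gene's highest member, 28 were lower. The effectors' sum of 0.493 became 0.0892 in members from thinned cells and 0.0414 in these without stromal cells, and ran from 0.170 to 0.355 in 10 further draws of the thinning, all above that 0.0892. Outside the members, centring gave 320 genes higher in place of 676, and the effectors' sum of 0.183 became 0.0153, or 0.205 in cells with none of the 7 genes. Against other cells, 59 genes, rule genes included, were 2-fold higher as reported, 119 at 20 UMIs, 28 at 100 UMIs and 39 with Isg15 not counted. With Isg15 not counted, and with a mean of CPM per cell, 1 gene was lower in place of 0.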
